A study of Homo sapiens with 4 samples.

Results

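The regions described here are stretches of open chromatin that lie at the ends of neighbouring protein-coding genes, so that 1 peak can serve more than 1 gene. Peaks of 4 ATAC-seq libraries were merged wherever they overlapped by 1 bp or more, which gave 53572 regions. A region was taken as a shared end when it lay within 1000 bp of span ends of 2 or more protein-coding genes whose spans do not overlap each other. There were 1594 such regions, beside 9408 regions near the end of 1 gene only, 543 near the ends of genes that overlap each other and 42027 near no gene end. The choice used gene positions and the extent of the peaks of any library, and no fold or q value. Distance was taken from the edges of the merged region, so a wider region reaches a second gene end more readily. The median width was 1198.5 bp for shared ends and 1016.5 bp for regions near 1 gene, and its part in the called shares was not tested.

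ATAC-seq marks open DNA by the insertions of the Tn5 transposase. The cells were 786-O, a line from a human clear cell renal cell carcinoma that lacks functional VHL, the ubiquitin ligase subunit that turns over HIF alpha proteins. They were treated for 24 h with DMSO, the solvent, or with 5 µM ACSS2i, a compound directed at ACSS2, which makes acetyl-CoA from acetate in the cytosol and nucleus. Each treatment had 2 libraries, and no label says that these were separate cultures, so p-values reflect the spread of these libraries alone, and that spread may be technical. The series title concerns HIF-2 alpha degradation through MUL1. None of ACSS2, EPAS1 (which encodes HIF-2 alpha), MUL1, HIF1A, VHL and ARNT had a region at a shared end.

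Many human genes start back to back with a neighbour on the opposite strand. The stretch between such head-to-head genes works as a bidirectional promoter: it is usually a CpG island without a TATA box, and transcription starts on both of its sides. Housekeeping genes of DNA repair, mitochondria and translation are often arranged this way. Where 2 genes point the same way (head-to-tail), the region lies at the end of one and the start of the next, and tail-to-tail genes meet at their 3′ ends.

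The stretches between 7 head-to-head pairs are printed because the results turn on them: CAB39L/SETDB2 was among the strongest shared ends in all 4 libraries, HSPD1/HSPE1 and SARS2/MRPS12 are known pairs that were called in all 4 libraries, SIRT3/PSMD13 had no peak in 1 of the ACSS2i libraries, and TMEM167A/XRCC4, WDR53/FBXO45 and COL4A1/COL4A2 had no peak in either ACSS2i library. Each line gives the plus strand of GRCh38.p14 from RefSeq promoter sequences, 5′ to 3′. Capitals mark the bases between the 2 gene spans, and the 20 lower-case bases on each side belong to the genes.
CAB39L/SETDB2 chr13:49444045-49444293: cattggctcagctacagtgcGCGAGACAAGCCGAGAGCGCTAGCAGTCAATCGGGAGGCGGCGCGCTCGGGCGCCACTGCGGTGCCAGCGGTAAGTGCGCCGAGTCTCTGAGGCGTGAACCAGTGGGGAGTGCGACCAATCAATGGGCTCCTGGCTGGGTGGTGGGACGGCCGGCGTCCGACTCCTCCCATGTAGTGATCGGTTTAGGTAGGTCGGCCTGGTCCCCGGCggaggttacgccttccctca
HSPD1/HSPE1 chr2:197500255-197500398: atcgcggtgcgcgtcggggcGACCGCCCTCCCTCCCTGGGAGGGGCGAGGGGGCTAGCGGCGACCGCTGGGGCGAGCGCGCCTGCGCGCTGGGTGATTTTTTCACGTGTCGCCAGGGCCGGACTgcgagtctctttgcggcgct
SARS2/MRPS12 chr19:38930744-38930963: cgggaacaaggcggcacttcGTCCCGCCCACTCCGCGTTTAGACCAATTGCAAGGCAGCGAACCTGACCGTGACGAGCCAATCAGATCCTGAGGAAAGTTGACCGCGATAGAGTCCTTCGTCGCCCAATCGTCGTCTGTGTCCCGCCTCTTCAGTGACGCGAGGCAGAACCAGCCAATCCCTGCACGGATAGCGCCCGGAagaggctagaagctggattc
SIRT3/PSMD13 chr11:236912-236995: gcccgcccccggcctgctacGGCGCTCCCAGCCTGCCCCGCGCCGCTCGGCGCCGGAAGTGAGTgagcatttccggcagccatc
TMEM167A/XRCC4 chr5:83077375-83077566: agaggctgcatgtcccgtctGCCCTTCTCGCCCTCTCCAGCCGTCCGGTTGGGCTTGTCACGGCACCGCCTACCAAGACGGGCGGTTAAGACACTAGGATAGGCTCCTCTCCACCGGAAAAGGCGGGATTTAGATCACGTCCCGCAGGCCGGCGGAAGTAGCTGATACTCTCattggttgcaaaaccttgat
WDR53/FBXO45 chr3:196568535-196568679: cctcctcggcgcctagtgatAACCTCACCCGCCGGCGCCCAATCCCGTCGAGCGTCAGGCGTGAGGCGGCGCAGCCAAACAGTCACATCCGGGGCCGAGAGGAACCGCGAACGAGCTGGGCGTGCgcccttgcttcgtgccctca
COL4A1/COL4A2 chr13:110307138-110307303: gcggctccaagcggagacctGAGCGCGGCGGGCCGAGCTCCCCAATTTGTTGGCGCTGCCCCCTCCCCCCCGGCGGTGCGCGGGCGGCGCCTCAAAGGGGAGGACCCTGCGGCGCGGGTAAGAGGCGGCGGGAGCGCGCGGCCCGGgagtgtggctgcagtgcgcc

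All of these stretches were rich in G and C. The GC content of the printed bases was 65.9% at CAB39L/SETDB2, 73.6% at HSPD1/HSPE1, 59.5% at SARS2/MRPS12 and 76.2% at SIRT3/PSMD13. It was 58.9% at TMEM167A/XRCC4, 69.0% at WDR53/FBXO45 and 77.7% at COL4A1/COL4A2, so the pairs without an ACSS2i peak held both the lowest and the highest value. The CCAAT box, counted on both strands and with the lower-case bases, was found 4 times at SARS2/MRPS12 and 2 times at CAB39L/SETDB2. It was found 1 time each at TMEM167A/XRCC4, WDR53/FBXO45 and COL4A1/COL4A2, and not at HSPD1/HSPE1 or SIRT3/PSMD13. The 44 bases between SIRT3 and PSMD13 held 1 CCGGAAGT, the ETS site, and no TATAAA was found in any of the 7.

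The lists of peaks differed in length over the whole genome, and this stands beside every count that follows. DMSO replicates 1 and 2 had 34696 and 50294 peaks, and ACSS2i replicates 1 and 2 had 16400 and 22044. Peaks had a median width of 565 and 558 bp in the DMSO lists, against 414 and 476 bp with ACSS2i. The depth of the libraries is unknown. Of 10 markers for a renal carcinoma line, 6 to 8 had a gene-end peak in each library, with none at PAX2 or CA9, and none of 3 endothelial and 2 muscle markers had one in any library. Of 4 immune markers 1 had a peak in DMSO replicate 2 only, and of 3 neuronal markers 1 and 2 had one in DMSO replicates 1 and 2 and none in the ACSS2i libraries.

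Peaks at shared ends were counted in each library first. Since a region enters through a peak in any list, 122 entered only through DMSO replicate 2 and 21 only through DMSO replicate 1, so the longer DMSO lists partly set these shares. Of the 1594 regions, 1462 (91.7%) had a peak in DMSO replicate 1 and 1573 (98.7%) in DMSO replicate 2, where 63.4% and 92.8% of all regions did. After ACSS2i, 968 (60.7%) had a peak in replicate 1 and 1159 (72.7%) in replicate 2, where 29.1% and 39.7% of all regions did. Both ACSS2i libraries were below both DMSO libraries. The mean share was 95.2% ± 4.92 (SD, n = 2) in DMSO and 66.7% ± 8.47 (SD, n = 2) after ACSS2i. The difference of -28.5 percentage points had p = 0.333 in a two-sided exact permutation test, the smallest p that 2 against 2 libraries allow.

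One-gene ends were called less often in each library. Their shares were 80.9% and 98.3% in the DMSO libraries, against 46.8% and 59.6% after ACSS2i. Of the 9408 one-gene ends, 1679 entered only through DMSO replicate 2, beside 122 of the 1594 shared ends. Such regions count as uncalled in every other library, so this entry rule partly sets the excess, by an amount not tested. The excess of the shared ends was 10.8 and 0.341 percentage points in DMSO and 13.9 and 13.1 percentage points after ACSS2i. Both ACSS2i values were above both DMSO values, with a difference between the group means of 7.91 percentage points (exact permutation test, two-sided, p = 0.333). This order was not seen with every list shortened to its 16400 strongest peaks. Shared ends then had 82.2% and 86.6% in DMSO and 77.1% and 80.0% after ACSS2i, and one-gene ends 72.7% and 83.6%, then 70.5% and 73.6%. The excess overlapped between the groups, with a difference of 0.243 percentage points (exact permutation test, p = 1). The called share of shared ends itself differed by -5.85 percentage points in these lists. In DMSO replicate 2, the longest list, almost every gene end of both kinds was called, which leaves little room for a difference there.

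**Figure D1:**
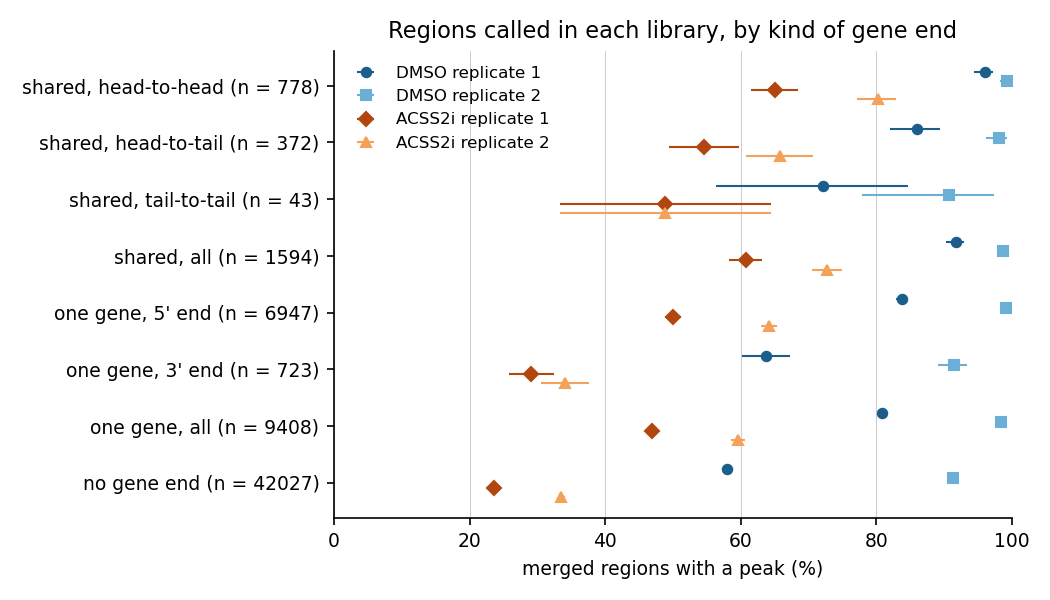
Share of merged regions with a peak (x axis, percent) for 8 kinds of region (y axis), with 1 point per library and exact 95% binomial intervals, which cover counting error only. Shared ends lie between 60.7% and 98.7%, and head-to-head ends lie above head-to-tail ends in every library.

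The direction of the genes went with how often the region was called. Strand was known for 2594 of the 3078 genes at shared ends, which gave 778 head-to-head, 372 head-to-tail and 43 tail-to-tail regions, with the strand of the closest pair not known in 401. Head-to-head regions were called in 96.0%, 99.2%, 65.0% and 80.2% of cases in DMSO replicates 1 and 2 and ACSS2i replicates 1 and 2. Head-to-tail regions followed with 86.0%, 98.1%, 54.6% and 65.9%, and tail-to-tail regions with 72.1%, 90.7%, 48.8% and 48.8%. One-gene 5′ ends, the fitting comparison for the head-to-head class, were called in 83.9%, 99.2%, 50.04% and 64.2%, so head-to-head regions were higher in 3 of the 4 libraries and level in DMSO replicate 2.

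Most shared ends belonged to a single pair. There were 1501 regions with 2 genes, 90 with 3 and 2 with 4, and 1 region lay near 23 genes, namely DIAPH1, which encodes a formin, and the protocadherin gamma genes, which share their 3′ end. The regions had 1562 distinct sets of genes, and 32 sets had 2 regions each, so that 64 regions are not independent of a neighbour. The median distance between the facing spans was 284 bp, with quartiles of 137 and 641.5 bp and a maximum of 3227 bp. Shared ends made up 13.8% of all regions at gene ends, from 8.11% on chromosome 7 and 8.16% on chromosome 4 to 19.4% on chromosome 11 and 20.1% on chromosome 16.

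Peaks at shared ends and at one-gene ends had similar medians of fold. Among regions called in all 4 libraries, the median was a little higher at shared ends in 3 libraries and lower in DMSO replicate 2. Fold enrichment is the authors' value for the strongest summit over the local background, and its scale is that of each library. Kinds of region are compared within a library, and folds of different libraries stand side by side as a description, with no adjustment for their scale. Over all called regions the median was higher at shared ends in each library. It was 6.31 against 5.89 and 8.92 against 8.38 in DMSO replicates 1 and 2. In ACSS2i replicates 1 and 2 it was 5.05 against 4.74 and 4.69 against 4.54. Over the 915 shared ends and 4030 one-gene ends called in all 4 libraries, the median fold was 7.12 against 6.91 in DMSO replicate 1 and 9.92 against 10.0 in DMSO replicate 2. It was 5.12 against 4.82 in ACSS2i replicate 1 and 5.04 against 4.89 in ACSS2i replicate 2. The ratio of the medians was therefore 1.03 and 0.987 in DMSO and 1.06 and 1.03 after ACSS2i. The groups did not overlap, but DMSO replicate 1 and ACSS2i replicate 2 were almost equal, at 1.031 and 1.032. The difference of 0.05 in the log2 ratio had p = 0.333 (two-sided exact permutation test). The groups overlapped with lists of equal length, with −log10 q of at least 5 and with merging at 200 bp.

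Loss was counted over the regions that had a peak in both DMSO libraries. Of 1441 such shared ends, 239 (16.6%, exact 95% interval 14.7 to 18.6%) had no peak in either ACSS2i library, where 33.5% of all regions did. Another 287 had a peak in 1 ACSS2i library, 237 of them in replicate 2 and 50 in replicate 1. The remaining 915 (63.5%) were called in all 4 libraries, where 42.2% of all regions were. Beside those called in a single DMSO library, 10 shared ends had peaks in 1 DMSO library and at least 1 ACSS2i library.

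No shared end of the full lists was without a DMSO peak, so none could count as gained. All 1212 shared ends with an ACSS2i peak also had a DMSO peak, so that the 0 gained came from 0 candidates. Regions without a DMSO peak were few, 1400 of all 53572 regions and 24 of the 9408 one-gene ends. Over the whole set 12 (0.857%) of the 1400 gained a peak in both ACSS2i libraries, and 1 of the 24 one-gene ends did. With every list shortened to its 16400 strongest peaks, 36 of 918 shared ends were lost (3.92%), where 6.41% of all regions were, and 20 of the 36 were also lost in the full lists. In the same shortened lists 7 of 60 shared ends without a DMSO peak were gained, where 13.8% of all such regions were. The 7 lay at SBF2/ADM, IPO4/TM9SF1, RPL4/ZWILCH, ULK3/SCAMP2, HCFC1/TMEM187 and, with 2 regions, RABL6/AJM1. They are named because the count is small. In the full lists every shared end had a peak in at least 1 DMSO library.

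Shared ends were lost less often than one-gene ends as counted, and about equally often at equal strength. Of 7479 one-gene ends 1628 were lost (21.8%). DMSO strength was taken as the lower of the 2 DMSO percentiles of −log10 q, and its median was 68.6 for shared ends and 60.7 for one-gene ends. Weighted to the strength of the shared ends, the loss of the one-gene ends was 16.0%, which is 230.5 regions expected beside the 239 seen, or 0.59 percentage points more at shared ends. This small difference turned negative under 6 of 14 other settings, among them leaving out DMSO replicate 1 (-2.38) or ACSS2i replicate 2 (-0.63), so it has no stable direction.

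Strength in DMSO ordered the loss steeply for both kinds of end. Regions were put in 10 deciles by DMSO strength. In decile 1, the weakest, 44 of 53 shared ends (83.0%) and 75.2% of one-gene ends were lost. In decile 6 these shares were 14.1% and 14.5%, and in decile 9 0.415% and 0.723%. In decile 10, the strongest, 0 of 264 shared ends were lost, which allows a share of up to 1.14% for counting error, beside 1 of 987 one-gene ends. The counting intervals of both kinds overlapped in every decile.

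**Figure D2:**
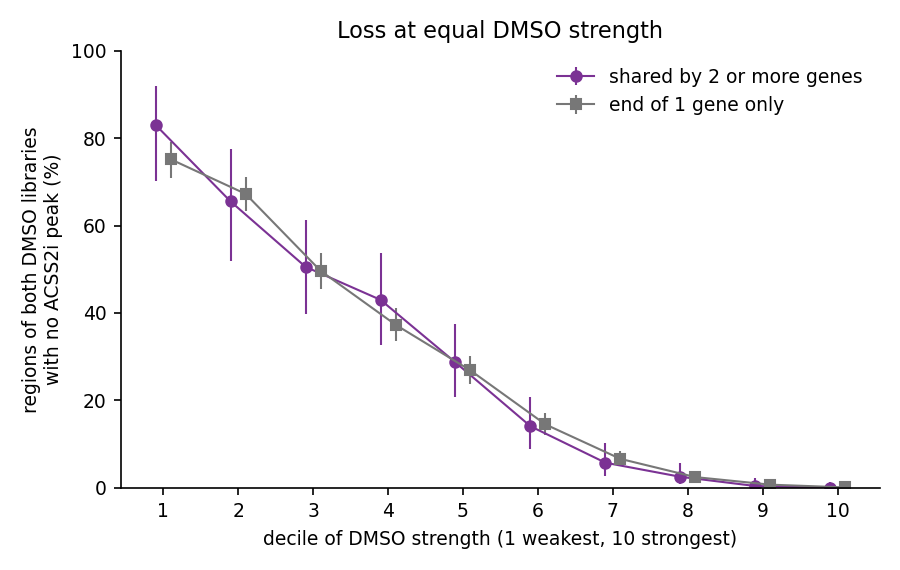
Share of regions called in both DMSO libraries that had no ACSS2i peak (y axis, percent) by decile of DMSO strength (x axis), for shared ends and one-gene ends, with exact 95% binomial intervals. Both lines fall together from 83.0% and 75.2% in the weakest decile to 0 and 0.101% in the strongest.

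Loss was counted by the direction of the genes too. Of head-to-head regions 102 of 741 were lost (13.8%, interval 11.4 to 16.5%), beside 59 of 313 head-to-tail (18.8%, 14.7 to 23.6%) and 5 of 27 tail-to-tail regions (18.5%, 6.30 to 38.1%). The intervals overlap. One-gene 5′ ends lost 19.9% as counted and 13.5% at the strength of the head-to-head regions, and one-gene 3′ ends lost 34.3% as counted. Matched also on peak width, a comparison added after the data were seen, the one-gene 5′ ends lost 12.4%.

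Head-to-head genes with the shortest distance between them were called least often after ACSS2i. The 188 regions with 0 to 100 bp between the genes were called in 94.1% and 98.9% of cases in DMSO replicates 1 and 2, and in 48.4% and 71.3% in ACSS2i replicates 1 and 2. The 391 regions with 101 to 300 bp had 69.3% and 82.6% after ACSS2i, the 169 with 301 to 1000 bp 72.2% and 84.0%, and the 30 above 1000 bp 73.3% and 83.3%. In DMSO all 4 classes lay between 94.1% and 100%, near the highest share possible, where a difference cannot show. The median fold in DMSO replicate 1 was already lower at 0 to 100 bp, 5.89 against 6.99 at 101 to 300 bp.

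The loss was lower in each wider class up to 1000 bp, and the DMSO strength was higher. It was 39 of 175 (22.3%, interval 16.4 to 29.2%) at 0 to 100 bp, 44 of 376 (11.7%, 8.63 to 15.4%) at 101 to 300 bp, 15 of 161 (9.32%, 5.31 to 14.9%) at 301 to 1000 bp and 4 of 29 (13.8%, 3.89 to 31.7%) above that. The median DMSO strength of the 4 classes was 59.6, 74.3, 78.2 and 71.0. One-gene 5′ ends of the same strength lost 18.8%, 12.2%, 11.6% and 9.58%, values that lie inside the interval of each class. The distance classes were set with earlier results of these data known, and no test was made between them.

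**Figure D3:**
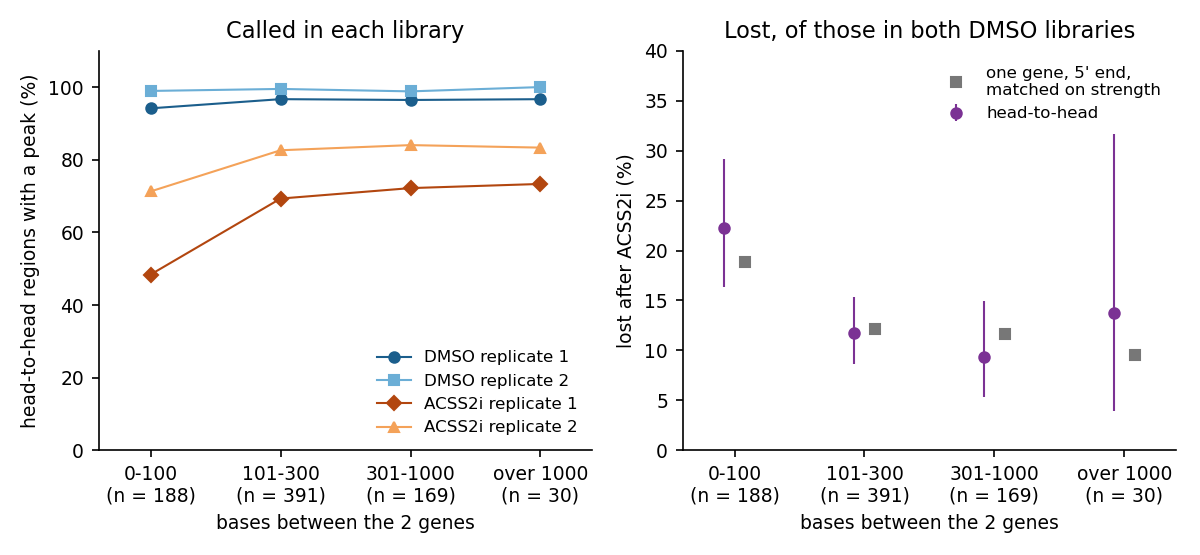
Head-to-head shared ends by the number of bases between the 2 genes (x axis): share with a peak in each library (left, percent) and share lost after ACSS2i (right, percent, with exact 95% binomial intervals) beside one-gene 5′ ends matched on DMSO strength. The 0 to 100 bp class is lowest after ACSS2i, at 48.4% and 71.3%, and has the highest loss, 22.3%.

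The open stretch usually reached both genes in DMSO and did so less often after ACSS2i. Among 466 head-to-head regions with 2 genes that were called in all 4 libraries, a peak covered both gene starts in 424 (91.0%) and 444 (95.3%) in DMSO replicates 1 and 2. It did so in 279 (59.9%) and 362 (77.7%) in ACSS2i replicates 1 and 2. The ACSS2i values were below both DMSO values, by 24.4 percentage points on average (exact permutation test, two-sided, p = 0.333). A peak covered 1 start only in 8.37% and 4.29% in DMSO and in 29.8% and 17.0% after ACSS2i.

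Starts of single genes were also covered less often after ACSS2i. Over 3215 one-gene 5′ ends called in all 4 libraries, the start was covered in 86.8% and 92.2% in DMSO replicates 1 and 2 and in 65.8% and 75.2% in ACSS2i replicates 1 and 2. Peaks at shared ends called in all 4 libraries had a median width of 1099 and 1311 bp in DMSO and of 581 and 805 bp after ACSS2i. The shorter ACSS2i lists move with these widths, and their part in the covered shares was not tested.

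The strongest summit lay close to the midpoint between the gene starts in each library. It was between the 2 starts in 55.5% and 57.0% of called head-to-head pairs in DMSO replicates 1 and 2, and in 54.6% and 55.0% in ACSS2i replicates 1 and 2. Its median distance from the midpoint was 88.5 and 86 bp in DMSO and 105 and 98 bp after ACSS2i. Between 77.0% and 83.0% of summits were within 250 bp of the midpoint in each library.

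**Figure D4:**
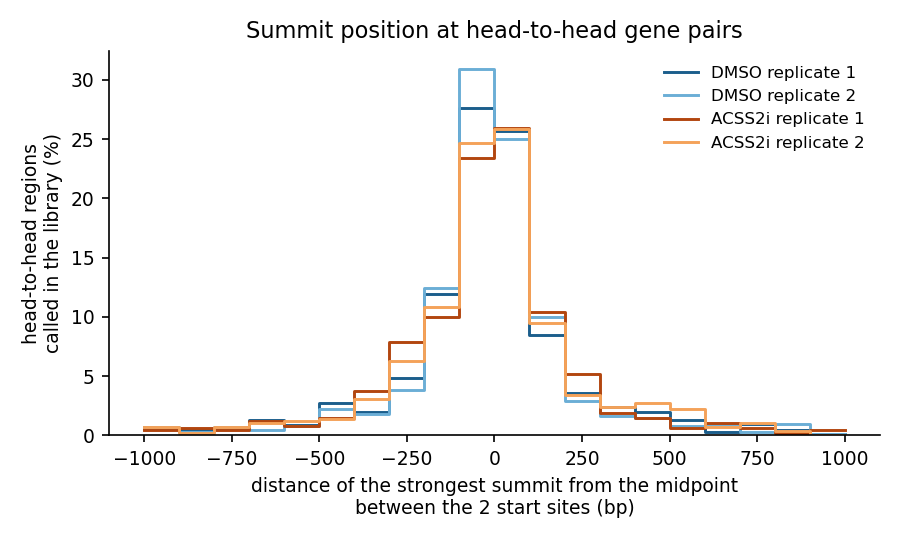
Position of the strongest summit relative to the midpoint between the starts of 2 head-to-head genes (x axis, bp, along the plus strand), as the share of regions called in each library (y axis, percent, bins of 100 bp). All 4 libraries peak in the 2 bins at the midpoint, and between 54.6% and 57.0% of summits lie between the starts.

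The strongest shared ends kept high values in every library. They were chosen by their lowest percentile of −log10 q over the libraries, so their rank is a description. At CAB39L/SETDB2 (chr13:49443527-49445200), where CAB39L encodes a scaffold of the LKB1 kinase complex and SETDB2 a SET-domain protein of the histone methyltransferase family, the fold was 12.1 and 13.9 in DMSO and 10.9 and 12.1 after ACSS2i. At NDUFA11/VMAC (chr19:5903706-5905084), which holds the start of a complex I gene, it was 10.7 and 10.8 in DMSO and 9.09 and 7.65 after ACSS2i. At SKA2/PRR11 (chr17:59154505-59155797), 2 genes of mitosis and the cell cycle, it was 9.38 and 12.4 in DMSO and 9.27 and 9.69 after ACSS2i. The groups overlapped at CAB39L/SETDB2 and SKA2/PRR11 and did not at NDUFA11/VMAC. Over all 13306 regions called in all 4 libraries, the median fold was 6.90 and 9.81 in DMSO and 4.90 and 4.88 after ACSS2i. Folds without overlap are therefore no trait of a single pair, and their share over all regions was not counted.

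The other 5 of the 8 strongest were VCPIP1/C8orf44-SGK3, NUDCD1/ENY2, TMEM60/PHTF2, DOCK4/ZNF277 and LRCH4/FBXO24. ENY2 encodes a subunit of the SAGA deubiquitinase module and of TREX-2, and VCPIP1 a deubiquitinase. Folds at these 5 ran from 7.98 at DOCK4/ZNF277 to 15.1 at VCPIP1/C8orf44-SGK3 in the DMSO libraries, and from 5.81 at LRCH4/FBXO24 to 11.2 at VCPIP1/C8orf44-SGK3 in the ACSS2i libraries. At VCPIP1/C8orf44-SGK3 the DMSO and ACSS2i folds overlapped, at 11.02 and 15.1 against 11.2 and 8.81. At NUDCD1/ENY2 they did not, at 9.51 and 13.6 against 8.02 and 8.44, the order that the medians over all regions also had.

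The strongest shared ends without an ACSS2i peak had middle to high DMSO values. The highest DMSO strength among them was 79.9, at NBR1/TMEM106A (chr17:43211530-43212496), a head-to-tail region where NBR1, an autophagy receptor, ends and TMEM106A starts; its fold was 8.13 and 11.7 in DMSO. The strongest lost head-to-head pair was ANGPTL6/PPAN (chr19:10106179-10106922), with 7.27 and 11.1 in DMSO, where PPAN acts in ribosome biogenesis. TMEM167A/XRCC4 (chr5:83077120-83077976), printed above, had 8.83 and 12.2 in DMSO, and XRCC4 is a factor of non-homologous end joining. None of the 8 had a peak in ACSS2i, which says that no peak passed the caller's threshold there and not that the site was closed.

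The other 5 of these 8 were also chosen by DMSO strength and not by function. They were TRAPPC14/GAL3ST4, TSR1/SGSM2, KIFC1/PHF1, WDR53/FBXO45 and LOC102724159/LOC102724200. TSR1 acts on the small ribosomal subunit, and FBXO45 is an F-box protein. KIFC1/PHF1 is head-to-tail: KIFC1, a mitotic kinesin gene, ends there and PHF1, which encodes a Polycomb-associated protein, starts. Of the 5 regions, 4 had DMSO folds between 6.38, at TRAPPC14/GAL3ST4, and 9.13, at WDR53/FBXO45. LOC102724159/LOC102724200 on chromosome 21 had 9.16 and 19.7 in a peak of only 212 and 288 bp. Whether reads of near-identical sequence elsewhere fell in it was not tested.

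Known bidirectional pairs were not alike. Of 14 textbook pairs 10 had a region of this kind, and among the others the spans of PPAT/PAICS, BRCA2/ZAR1L and KRT8/KRT18 overlap in the gene table. HSPD1/HSPE1, the mitochondrial chaperonin and its co-chaperonin, had folds of 8.50 and 10.2 in DMSO and of 5.13 and 7.75 after ACSS2i. Its peak was 1501 and 1763 bp wide in DMSO, and 546 and 1234 bp after ACSS2i. ACSS2i replicate 1 was the lowest in both fold and width.

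The 3 textbook pairs with DNA repair and replication genes were called in all 4 libraries. NPAT/ATM, the histone gene activator and the DNA damage kinase, had folds of 8.38 and 12.6 in DMSO and of 7.05 and 6.71 after ACSS2i. PRKDC/MCM4, a catalytic subunit of end joining and a helicase subunit, had 7.65 and 8.82, then 4.67 and 6.04. TMEM258/FEN1, where FEN1 is the flap endonuclease, had 5.91 and 8.80, then 3.87 and 3.08. In all of them the ACSS2i folds were below both DMSO folds, as the medians of the whole lists were.

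Antigen processing and collagen pairs took opposite places. TAP1/PSMB9, the peptide transporter and an immunoproteasome subunit, had 8.18 and 10.7 in DMSO and 9.38 and 6.44 after ACSS2i, with overlapping groups. COL4A1/COL4A2, the type IV collagen chains of basement membranes, had low values of 2.88 and 5.26 in DMSO and no peak after ACSS2i. Its DMSO strength was 8.03, inside the weakest decile, where most shared ends were lost.

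Pairs with mitochondrial genes were split as well. SURF1/SURF2, where SURF1 is an assembly factor of cytochrome c oxidase, had 3.81 and 7.18 in DMSO and no peak after ACSS2i. SIRT3/PSMD13, the mitochondrial deacetylase and a proteasome subunit, had 7.22 and 9.95 in DMSO, none in ACSS2i replicate 1 and 4.54 in ACSS2i replicate 2. SARS2/MRPS12, both of the mitochondrial translation machinery, had 7.49 and 10.9, then 4.85 and 5.86. The region of POLR2I and TBCB, which OVOL3 also borders, had 7.98 and 12.4, then 4.79 and 5.28. In the last 2 regions both ACSS2i folds were below both DMSO folds, the order that the medians over all regions also had.

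**Figure D5:**
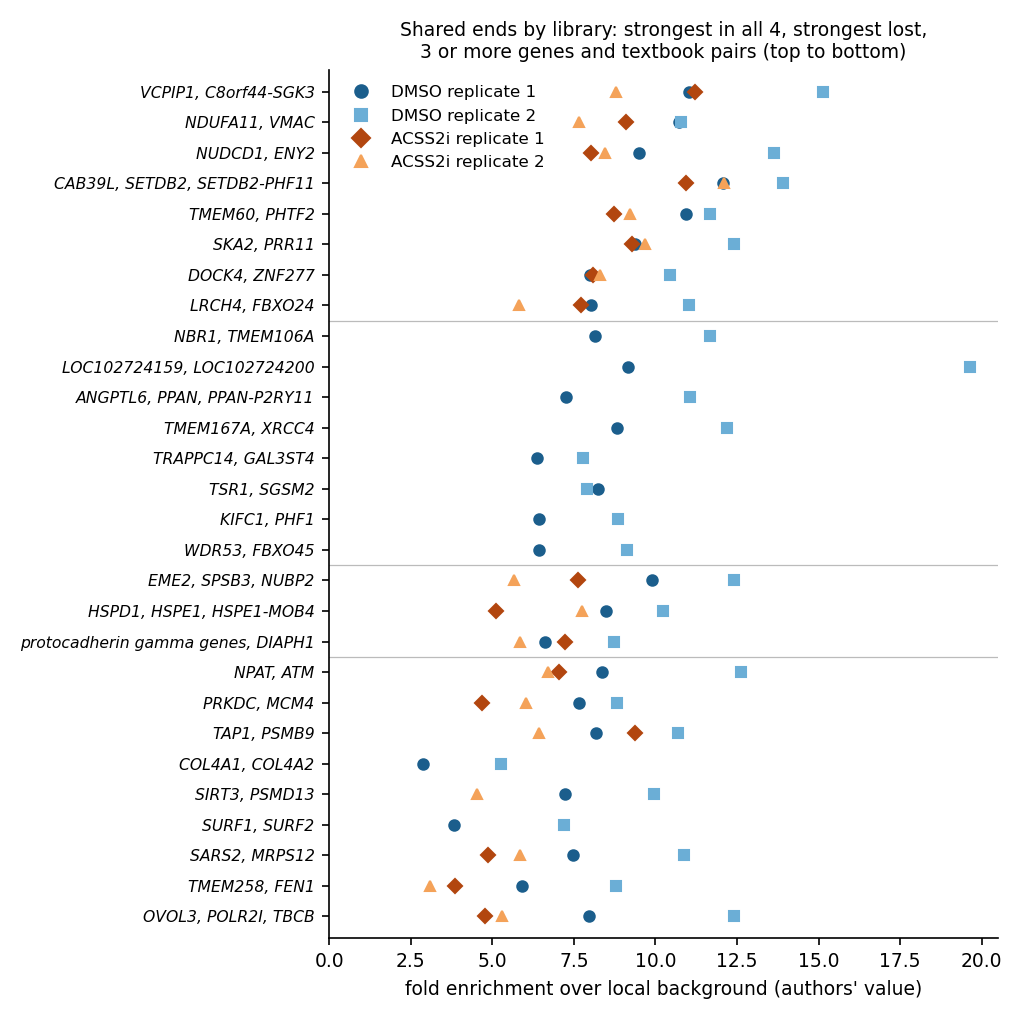
Fold enrichment over local background (x axis, the authors' value) in each library for named shared ends (y axis), in 4 blocks: strongest in all 4 libraries, strongest lost, near 3 or more genes, and textbook pairs. The second block has DMSO points only, and COL4A1/COL4A2 and SURF1/SURF2 also lack ACSS2i points.

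The 4 named regions near 3 or more genes were chosen by the highest DMSO strength. All were called in the 4 libraries, and all lay in the strongest decile, where 0 of 264 shared ends were lost. EME2/SPSB3/NUBP2 had folds of 9.91 and 12.4 in DMSO and of 7.62 and 5.66 after ACSS2i, and its NUBP2 is a factor of iron-sulfur cluster assembly. The region near DIAPH1 and the protocadherin gamma genes, tail-to-tail by its closest pair, had 6.62 and 8.73, then 7.23 and 5.84, so its groups overlapped. CAB39L/SETDB2 and HSPD1/HSPE1 counted here only through read-through genes (SETDB2-PHF11 and HSPE1-MOB4) that start at the same place.

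To compare places within the lists, ranks were taken among the 13306 regions called in all 4 libraries, as percentiles of −log10 q. The median rank of the 915 shared ends was 56.8 and 60.0 in DMSO and 54.8 and 54.6 after ACSS2i, with 496 lower and 419 higher after ACSS2i. For one-gene ends it was 49.4 and 56.2, then 47.1 and 49.6. The median shift was -1.55 for shared ends, -2.65 for one-gene ends and 0.166 for all regions, all small beside the span of ranks. The 4 largest falls and rises are given as descriptions, since they were chosen by this measure.

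The largest fall was at EMILIN1/KHK (chr2:27085716-27087044), an extracellular matrix glycoprotein and the fructose kinase, whose rank was 72.1 and 74.0 in DMSO and 17.7 and 3.25 after ACSS2i. EIF3H/UTP23 went from 88.5 and 78.1 to 17.2 and 30.3, and LOC124904903/PLCG1 from 45.8 and 94.0 to 9.23 and 14.8. ATAD2B/UBXN2A, which holds the start of a bromodomain protein gene, went from 73.2 and 84.5 to 28.5 and 24.8. All 4 had lower ranks in both ACSS2i libraries than in both DMSO libraries.

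The largest rise was at the region of DEAF1, TMEM80 and EPS8L2 (chr11:705040-708238), from 22.5 and 24.3 in DMSO to 92.4 and 87.8 after ACSS2i. Its fold was 4.18 and 4.84 in DMSO and 6.52 and 5.44 after ACSS2i, against the direction of the list medians. CFL1/MUS81 (chr11:65857746-65860916), cofilin and an endonuclease of replication forks, went from 35.3 and 35.5 to 83.6 and 80.4. ST7L/CAPZA1 and RABL6/AJM1 went from 41.5 and 17.6 to 65.6 and 87.3 and from 3.33 and 2.01 to 40.4 and 58.7. The regions of DEAF1 and of CFL1 were 3199 and 3171 bp wide. The gaps of their closest pairs, TMEM80/EPS8L2 with 1202 bp and CFL1/MUS81 with 1493 bp, were above the upper quartile. The gap between TMEM80 and EPS8L2 lies inside the span of DEAF1.

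Genes of some functions sat at shared ends more often than others. Of all 19866 protein-coding genes in the table, 3078 (15.5%) were at a shared end. The share was 51.7% for histone genes (45 of 87), which lie in dense clusters, 42.9% for genes of the mitochondrial ribosome (33 of 77), 37.2% for DNA repair and replication (42 of 113) and 34.3% for aminoacyl-tRNA synthetases (12 of 35). It was 32.1% for the respiratory chain, 31.5% for the cytosolic ribosome, 26.5% for protein folding, 13 of 50 genes for the proteasome, and 24.5% for RNA polymerase II and its basal factors. Zinc finger genes were lowest, with 9.59% (49 of 511). The lists were drawn by symbol, so each can hold relatives, such as PSME3IP1 in that of the proteasome.

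Loss within the lists lay around the share of all shared ends. The counts mix starts and 3′ ends of the listed genes. For the mitochondrial ribosome 18 of 36 shared ends were head-to-head. For the mitochondrial ribosome 9 of 33 shared ends were lost (27.3%, interval 13.3 to 45.5%), where one-gene ends of the same strength gave 5.28 expected. The 9 included MRPL27/EME1, MITD1/MRPL30 and MRPS5/ZNF514, with DMSO folds between 5.41 and 12.5. Others were called in all 4 libraries, such as TCP1/MRPL18 with 7.94 and 10.3 in DMSO and 7.44 and 6.90 after ACSS2i. For RNA polymerase II 6 of 25 were lost, with 3.67 expected, and these included ILK/TAF10/TPP1 and TAF11/ANKS1A.

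In the respiratory chain 6 of 34 were lost, with 4.78 expected. RNF113A/NDUFA1 had 7.14 and 12.1 in DMSO and no peak after ACSS2i, while WDR4/NDUFV3 had 9.69 and 13.9, then 7.02 and 7.16. Both NDUFA1 and NDUFV3 encode subunits of complex I. TIMM8B/SDHD, which holds the start of a complex II gene, was lost as well.

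The other 7 lists had counts below the expected number. In DNA repair and replication 5 of 41 were lost, with 5.27 expected: TMEM167A/XRCC4, EIF4A2/RFC4, LIG4/ABHD13, P2RX2/POLE and the region of TEX14, IGBP1C and RAD51C. EIF4A2/RFC4 is tail-to-tail, so it lies at the 3′ end of RFC4 and not at its start. Of the 42 shared ends of this list 27 were head-to-head. In the cytosolic ribosome 3 of 27 were lost with 3.95 expected, in the histone clusters 3 of 22 with 5.38 expected, in protein folding 3 of 20 with 3.25 expected, and in the zinc finger genes 4 of 34 with 6.78 expected. The proteasome and the aminoacyl-tRNA synthetases lost 1 of 12 each, with 1.30 and 1.46 expected. HSPA1L/HSPA1A was among the lost folding genes, with 4.46 and 5.12 in DMSO, and it is uncertain because HSPA1A has a near-identical copy. HARS1/HARS2, the cytosolic and mitochondrial histidyl-tRNA synthetases, stayed called with 9.32 and 12.3 in DMSO and 5.15 and 5.76 after ACSS2i. These counts are small, and none of them was tested. The lists also share lost regions. NDUFA7/RPS28/KANK3 and NDUFB10/RPS2 counted for both the cytosolic ribosome and the respiratory chain. MRPS5/ZNF514 counted for the mitochondrial ribosome and the zinc finger genes, and GTF2H4/VARS2 for RNA polymerase II and the aminoacyl-tRNA synthetases.

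Promoter sequences were compared over the RefSeq windows from 250 bases before to 50 after the gene start, on both strands. The windows of a pair overlap where its genes are close, so 1 site can count for both genes. The ETS site CCGGAAGT was found in 15.6% of 1536 genes at head-to-head ends, in 7.76% of 6652 genes at one-gene 5′ ends and in 6.19% of all 15842 promoters of the same length. The core of the NRF1 site, TGCGCA, followed with 17.4%, 13.5% and 10.8%, and that of the YY1 site, AAGATGG, with 10.2%, 7.20% and 6.40%. CCAAT was found in 43.7%, 36.5% and 36.4%.

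The other motifs were counted in the same way. The GC box GGGCGG was found in 72.5% of genes at head-to-head ends, 71.8% at one-gene 5′ ends and 58.5% of all promoters. TATAAA was found in 4.23%, 5.43% and 9.63%, and the AP-1 site TGANTCA in 3.13%, 4.51% and 5.75%. The hypoxia core ACGTG was found in 30.7%, 26.2% and 23.7%, and the E-box CACGTG, which contains it, in 11.1%, 9.83% and 8.88%. TGACGTCA, the CRE, was found in 3.71%, 3.29% and 2.59%.

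The same motifs were counted for genes of lost and of kept head-to-head ends. CCAAT was found in 35.8% of 204 genes at lost ends and 49.2% of 978 genes at ends called in all 4 libraries. The GC box was found in 66.7% and 75.8%, the NRF1 core in 12.3% and 18.6%, and the ETS site in 15.7% and 14.4%. Median GC was 62.5% and 64.7%, and the median ratio of observed to expected CpG was 0.893 and 0.874. A match is a description of the letters and not of a bound factor, and no test was made.

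The limit of 1000 bp did not fall at a natural break. In 52 shared ends the second gene end lay 901 to 1000 bp away, and 48 one-gene regions had their next gene end 1001 to 1100 bp away. Just inside were ACER1/CLPP and RGL3/ODAD3 at 996 bp, with folds of 7.09 and 2.89 in DMSO replicate 1. Just outside were GRAMD2A/PKM at 1001 bp, FAM167B/LCK at 1003 bp and MTSS2/VAC14 at 1003 bp, of which only FAM167B/LCK had a peak in DMSO replicate 1, with 4.78. None of these 5 had a peak after ACSS2i.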

How the data were processed

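ATAC-seq peak lists of 786-O cells, 2 libraries with DMSO and 2 with ACSS2i, were grouped by the treatment in the labels. The submitters' processing notes name Trimmomatic 0.38, Bowtie2, SAMtools 1.9, Picard 2.18.26 and MACS2 2.1.2, with hg38 as the build. How MACS2 was set, whether reads were shifted for Tn5, how duplicates were handled and how many reads each library had is not given in the sources, so depth is unknown. The authors deposited 1 list per library, with a score per summit (checked only), a fold ratio over local background, −log10 p, −log10 q (at least 2 in every list) and the summit's offset in the peak. Summits of 1 interval were taken as 1 peak with the values of the strongest.

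Peaks were merged at 1 bp overlap, and a region counted as called in each library that had a peak there. A region called in both DMSO and neither ACSS2i library was lost. Gene spans were those of RefSeq on GRCh38.p14 (the build of the lists), without exons, so exon and UTR classes were not used here. Of its 20037 protein-coding entries, 171 with scaffold coordinates were left out, which changed 1 region. Strand came from the RefSeq promoter sequences (15842 genes). Orientation is that of the closest pair. One-gene ends were weighted to the deciles of DMSO strength of the shared ends, the strength being the lower of the 2 DMSO percentiles of −log10 q. Libraries were compared by two-sided exact permutation, with no p below 0.333 for 2 against 2. Binomial intervals are exact (Clopper-Pearson, 95%). They cover counting error only, as does the limit of 3 counts set for a count of 0. The matching was tested on simulated data. Alternatives changed the window, the q threshold, the list length, the merging, the matching and the libraries.

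Regions were named by rule: the 8 strongest in all 4 libraries, the 8 strongest lost, any gained, the 4 strongest with 3 or more genes, the 4 largest falls and rises in rank, 14 textbook pairs, and list members. The regions, lists and distance classes were chosen with earlier results of these data known. Python 3.11.15, pandas 2.3.3, numpy 2.4.6 and scipy 1.17.1 were used. Some of the regions these rules select are not reported here.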

Additional observations from a re-analysis of the deposited data

How the results depend on the processing

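The called share of shared ends, its excess over one-gene ends and the ratio of their median folds kept their direction under all 9 alternatives each, but with lists of equal length they shrank from -28.5 to -5.85 percentage points, from 7.91 to 0.243 (exact p = 1) and from 0.05 to 0.04 (exact p = 0.667). Leaving out 1 library gave -34.5 to -22.5 percentage points for the share, 6.90 to 13.1 for the excess and 0.01 to 0.08 for the log2 ratio. With the replicate number as a block the values were the same (-28.5, 7.91 and 0.05), with an exact p of 0.5, the smallest that 2 pairs allow. The deviations of same-numbered libraries had r = 0.166 across 13306 regions, and with 2 pairs the numbers are taken as names only.

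Loss depended on the lists used. With −log10 q of at least 5, 364 shared ends (27.2%) were lost, 24.5% of head-to-head and 32.6% of head-to-tail ones, and with lists of equal length 36 (3.92%), 3.59%, 5.85% and, for tail-to-tail ones, 0% of 16. Restricted to head-to-head regions, whether matched on strength or also on peak width, 102 (13.8%) were lost. Leaving out 1 library gave 270 to 475 lost (18.8 to 33.0%), 15.6 to 31.6% for head-to-head, 21.3 to 35.6% for head-to-tail and 22.2 to 41.0% for tail-to-tail regions, since loss then needs fewer libraries. The difference from matched one-gene ends, 0.59 percentage points, reversed to -0.0266 with −log10 q of at least 5, -0.927 with lists of equal length, -0.311 with merging at 200 bp, -1.68 with strength taken from fold, -2.38 with DMSO replicate 1 left out and -0.633 with ACSS2i replicate 2 left out, and the leave-one-out range was -2.38 to 0.395. The difference stayed positive under 8 settings, among them matching also on peak width (1.59) and leaving out histone and zinc finger genes (1.19). The cause was not tested. Peaks below the caller's threshold are not in the lists, so a lost region may still hold signal.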
